A study of Danio rerio with 43 samples.

Results

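The comparison described here set 3 libraries of rif1 mutant zebrafish embryos against 4 of wild-type embryos at dome, the late blastula stage, 4 to 4.5 hours post fertilisation (hpf). These 7 libraries were chosen by genotype and stage from the 43 libraries of a time course that runs from the 1-cell stage to 24 hpf. All embryos were of the Tab5 strain. The mutants were labelled homozygous for the allele omf201 (omf201/omf201) and the controls WT, and the labels used here give neither the genotype of the parents nor the position of the lesion. Each library was made from polyA RNA of a pool of whole, asynchronously dividing embryos with a 3′ end kit (QuantSeq), so cell types are mixed, and fewer cells of a type and less RNA per cell cannot be told apart. Nothing says that the pools of a group came from separate clutches, so p-values measure the spread between these pools.

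Rif1 is a nuclear protein that binds chromatin and protein phosphatase 1, and is known in vertebrates and yeast for holding back late-replicating DNA and for its part in the repair of DNA breaks. Dome lies just after the midblastula transition of the zebrafish. Before that transition the embryo runs fast, nearly synchronous divisions on RNA laid down by the mother. After it, the zygotic genome is transcribed widely, maternal RNA is cleared, the cell cycle lengthens and late replication appears. A pool of embryos that is further along therefore holds more of the RNAs that rise, and less of those that fall, between the flanking stages, and the genotype difference at dome was described separately for genes that change on that course and for genes that do not.

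The 7 libraries held 5211421 to 6826224 counts (mutant) and 6273139 to 7135949 counts (wild type). The 9 pairs of replicate libraries at dome all differed by more than sampling noise (chi-square per gene 11.2 to 17.7), and each library was counted as a replicate. This check does not show that the pools were independent. Of 24372 gene entries with any count in the time course, 11634 passed the filter on low counts at dome. As an absence check, a list of markers of blood, muscle, neural and other cell types that form later (14 entries) was summed. Sums are in CPM (counts relative to the library total, after TMM scaling). Such a list is no measure of age around dome. The sum was 63.8 to 139 CPM in wild type and 77.6 to 196 in mutants, was highest in wild-type replicate 3 and in mutant replicates 2 and 3, and none of the 5 markers that could be tested passed the test. Its part in the results was not tested.

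rif1 itself (ENSDARG00000062650) had 269, 353, 303 and 324 CPM in the wild-type libraries and 17.5, 11.2 and 13.2 CPM in the mutant ones. The groups were far apart, and the log2 difference, mutant minus wild type, was -4.48 (SE 0.17, adjusted p 6.18e-17 in edgeR's quasi-likelihood fit of the 7 libraries, after Benjamini-Hochberg correction over all genes). Reads of a 3′ kit come from near the end of the transcript, so this is a check of RNA level and not of the lesion.

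At dome 1979 of the 11634 genes tested passed an adjusted p of 0.05 by edgeR's quasi-likelihood test (17% of genes), of which 980 were higher in mutants (8.42%) and 999 lower (8.59%). The libraries of the genotypes did not overlap for 3208 genes (27.6%), and for 1805 of the 1979 called genes. The median log2 difference over all genes was -0.03. The calls were thus split evenly between the directions over all genes, and unevenly once genes were set apart by their course in wild type.

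Genes were classed from 3 wild-type libraries at 256-cell (2 to 2.5 hpf) and 3 at shield (6 hpf), none of which enters the comparison at dome. In that fit 66.4% of 11698 genes passed the test. A gene was rising if it passed with at least 1 log2 unit more at shield, falling if it passed with at least 1 log2 unit less, and steady if it changed by under 0.5 log2 units either way. All others were intermediate, and genes tested at dome but absent from that fit were unclassed. Of 3094 rising genes 2791 could be tested at dome, of 3305 falling genes 3124, of 2161 steady genes 2079 and of 3138 intermediate genes 2857, with a further 783 unclassed.

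Genes that rise on the wild-type course were mostly higher in mutants, and genes that fall were mostly lower. Of the 2791 rising genes 629 were called higher (22.5%) and 91 lower (3.26%), with a median log2 difference of 0.34. Of the 3124 falling genes 61 were called higher (1.95%) and 512 lower (16.4%), with a median of -0.35. Both medians lie on opposite sides of the median over all genes, and the log2 difference was above 0 for 74.8% of rising and 25.5% of falling genes. The 1141 calls in the direction of the course made up 57.7% of all calls at dome, against 152 calls in the opposite direction (7.68%).

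Genes that are steady from 256-cell to shield were called in both directions. Of the 2079 steady genes 120 were called higher (5.77%) and 175 lower (8.42%), and their median log2 difference was -0.03, the same as over all genes. Together these 295 genes made up 14.9% of the calls. The balance of steady calls depended on the scaling: 98 were higher and 207 lower with libraries scaled by their totals alone, and 180 higher and 125 lower with the classes themselves taken from library totals. The 2857 intermediate genes gave 147 calls higher and 196 lower (17.3% of the calls), and the 783 unclassed genes 23 and 25 with a median size of 6.04 log2 units among the called, against 0.858 over all called genes. Unclassed genes did not pass the filter on low counts in the wild-type fit. Their sizes at dome can rest on a genotype near 0 counts, where the fitted value depends on the prior count. Counts of steady calls were the ones most open to single libraries: steady calls higher fell to 77, 78 and 71 without mutant replicate 1, 2 or 3, and steady calls lower to 116 without wild-type replicate 4. Falling genes called higher fell from 61 to 40 without mutant replicate 1.

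**Figure D1:**
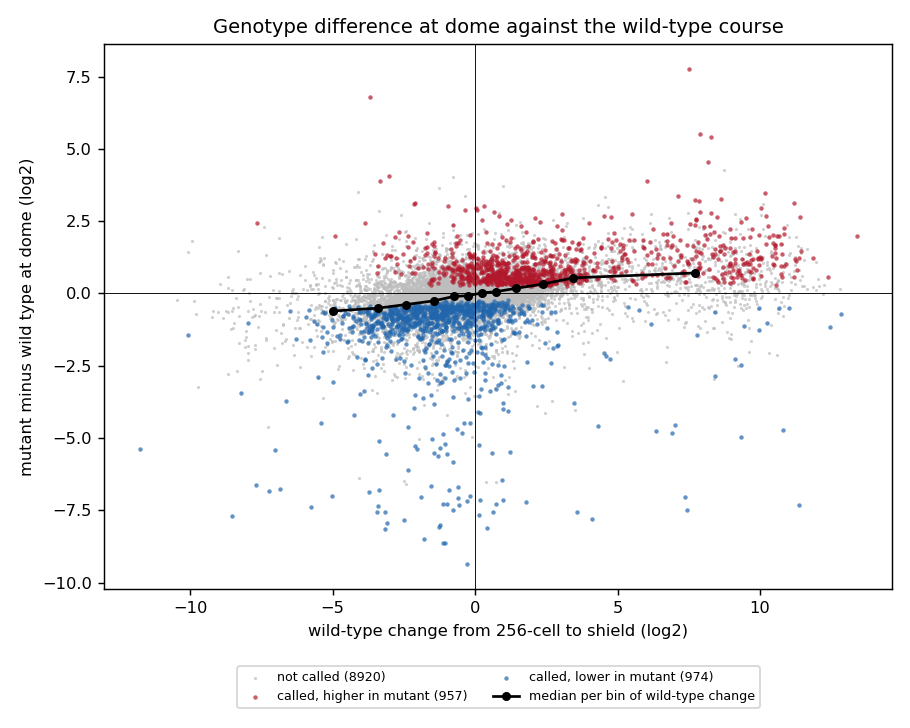
Each point is a gene tested at dome, placed by its wild-type change from 256-cell to shield (x, log2) and by its difference between mutant and wild type at dome (y, log2); red and blue mark genes called higher and lower, and the black line joins the medians of bins of the wild-type change. The medians climb from -0.61 in the bin that falls most to 0.71 in the bin that rises most.

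The size of the difference followed the size of the wild-type change. Among the 445 genes that fall by more than 4 log2 units the median difference at dome was -0.61, with 0.449% called higher and 14.2% lower. Among the 955 genes that rise by more than 4 log2 units it was 0.71, with 25.97% called higher and 3.04% lower. Across the 10851 genes that have both values, Pearson's r between the wild-type change and the difference at dome was 0.337 and Spearman's rho 0.432. Both are descriptions across genes of 1 set of libraries, which are not independent replicates.

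The rising genes include some already in the egg and some that appear only with zygotic transcription. For 655 rising genes the wild-type mean was under 1 CPM at both the 1-cell and the 256-cell stage. Their median difference at dome was 0.78, with 129 called higher (19.7%) and 25 lower (3.82%). The other 2136 rising genes had a median of 0.29, with 500 called higher (23.4%) and 66 lower (3.09%). The genes nearly absent before the transition thus had the larger median. The shares called in both sets were near those of all rising genes (22.5% and 3.26%).

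The same contrast can be read library by library. Rising genes took 41.8%, 44.5%, 41.5% and 41.4% of the counts in the 4 wild-type libraries and 48.5%, 47.5% and 48.6% in the mutant ones, a mean of 42.3% ± 1.48 (SD, n = 4) against 48.2% ± 0.617 (SD, n = 3). Falling genes took 18.5%, 16.4%, 19.1% and 19.02% in wild type and 13.9%, 14.6% and 14.0% in mutants, a mean of 18.2% ± 1.25 against 14.2% ± 0.397. Steady genes took 19.99% ± 0.206 in wild type and 18.8% ± 0.134 in mutants, a narrower gap. Shares are parts of each library's total, so a larger rising share lowers the others, and they are not independent results. The genotypes did not overlap in any of these shares, and each exact two-sided permutation test gave p = 0.0571, adjusted p = 0.0571 over the family, which is the smallest value 35 regroupings of 3 and 4 libraries can give.

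A position on the wild-type course was computed for each library as the slope of its log2 CPM, relative to the 256-cell mean, on the change to shield over rising and falling genes, so that 0 is 256-cell and 1 is shield. Wild-type dome libraries stood at 0.477, 0.532, 0.476 and 0.474, and mutant ones at 0.623, 0.610 and 0.619. The mean was 0.489 ± 0.0282 (SD, n = 4) against 0.617 ± 0.00673 (SD, n = 3), a gap of 0.128 of the interval (exact two-sided permutation p = 0.0571, the smallest possible). Wild-type replicate 2 stood nearest the mutants. Without it the gap was 0.142, and edgeR called 1992 genes. On rising genes alone the means were 0.549 ± 0.0297 and 0.661 ± 0.00537, and on falling genes alone 0.381 ± 0.0396 and 0.537 ± 0.0159, so the gap was present in both. Dome pools of both genotypes are labelled 4 to 4.5 hpf, with no time given for each pool. A difference in collection time between the pools was not tested and cannot be told apart from one of genotype.

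**Figure D2:**
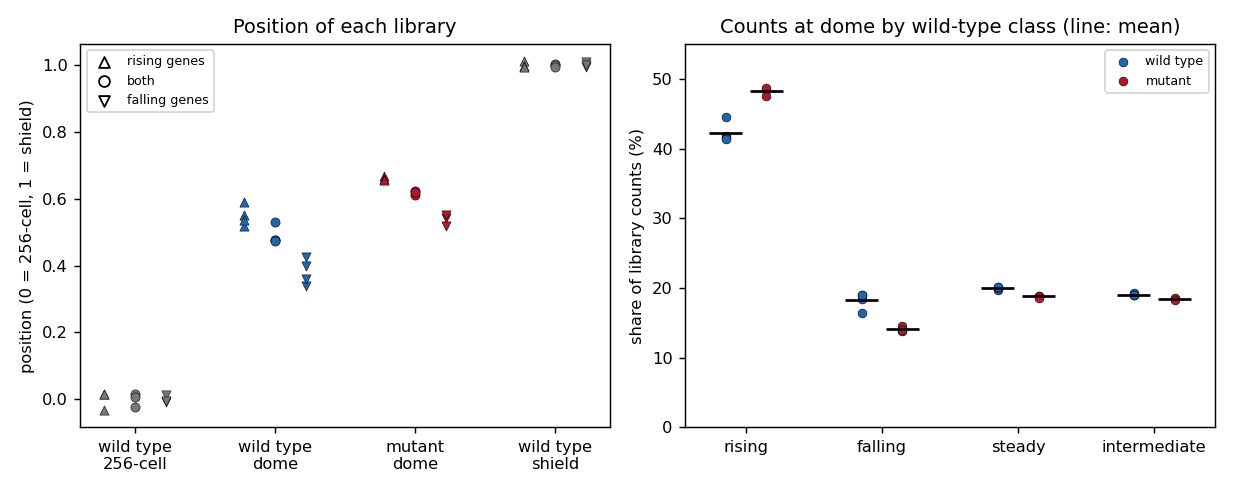
Left, the position of each library between wild-type 256-cell (0) and shield (1), from rising genes, falling genes or both; right, the percent of each dome library's counts in each wild-type class, with lines at the group means. The 3 mutant libraries lie between 0.610 and 0.623, all above the wild-type dome libraries at 0.474 to 0.532.

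At stages away from dome the classes did not part in this way. The median log2 difference of rising genes was -0.0024 at the 1-cell stage, -0.01 at bud (the end of gastrulation) and -0.02 at 24 hpf. That of falling genes was -0.06, -0.01 and 0.03, and that of steady genes -0.04, 0.03 and -0.02. The 256-cell and shield stages are left out here because their wild-type libraries define the classes.

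The largest differences by the rule used here (at least 1 log2 unit, no overlap between genotypes, at least 5 CPM in the higher group) among rising genes higher in mutants were in genes with at most 8.01 CPM in any wild-type library at dome. sgpp1a, which encodes a sphingosine-1-phosphate phosphatase, had 0.945, 1.23, 0.155 and 0.562 CPM in wild type and 7.56, 6.15 and 10.9 in mutants (log2 difference 3.47, SE 0.87, edgeR adjusted p 0.00598). cxcl12b, a chemokine that guides migrating cells, had 0, 0.308, 3.40 and 3.37 CPM in wild type and 18.5, 12.3 and 19.8 in mutants (3.23, SE 0.74, edgeR adjusted p 0.00421). pkp3a, a plakophilin of the desmosome, had 5.82, 7.39, 3.56 and 8.01 CPM in wild type and 38.5, 31.2 and 62.4 in mutants (2.82, SE 0.34, edgeR adjusted p 6.96e-07). The fourth, zeb2, a zinc finger repressor, had 0.616 ± 0.577 CPM in wild type and 6.61 ± 3.49 in mutants (3.39, SE 1.07, edgeR adjusted p 0.0284). Its call was lost without mutant replicate 1 or 2 or wild-type replicate 3 or 4 (adjusted p 0.0591 to 0.138), and that of sgpp1a without mutant replicate 3 (adjusted p 0.0521). At shield, where 9.76% of all genes tested were called, the log2 differences were 0.04 for sgpp1a, -0.25 for zeb2, 0.64 for cxcl12b (none called by edgeR; adjusted p 0.963, 0.878 and 0.178) and 0.39 for pkp3a (edgeR adjusted p 0.0441).

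The called rising genes with the highest CPM encode general machinery. h3f3a, a replication-independent histone H3, had 5716, 6338, 5516 and 6065 CPM in wild type and 7267, 6957 and 9108 in mutants (0.40, SE 0.08, edgeR adjusted p 0.00103). eef1a1l1, a translation elongation factor, had 4581, 5617, 4714 and 4089 CPM in wild type and 6604, 7152 and 6950 in mutants (0.54, SE 0.08, edgeR adjusted p 3.27e-05). In both the groups did not overlap, and the differences were small beside those of the rarer genes.

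Falling genes lower in mutants included RNAs that were still present in wild type at dome and at or near 0 in mutants. fcho1, a protein of clathrin-mediated endocytosis, had 9.13, 2.15, 5.57 and 5.48 CPM in wild type and no count in any mutant library, so it was at least 32.8-fold lower against a floor of 3 counts over the group (edgeR adjusted p 0.000987). pik3ap1, an adaptor of phosphoinositide 3-kinase, had 19.7, 12.5, 15.5 and 15.6 CPM in wild type and 2 counts over the 3 mutant libraries, a ratio of 139 with a 95% counting interval of 38.6 to 1150 (edgeR adjusted p 5.20e-07). pla2g4f.2, a cytosolic phospholipase A2, had 8.25 ± 2.23 CPM in wild type and 1 count over the mutant libraries (ratio 145, interval 26.1 to 5745, edgeR adjusted p 6.50e-05). msraa, a methionine sulfoxide reductase, had 7.43 ± 2.99 CPM and 3 counts over the mutant libraries (ratio 43.7, interval 14.9 to 212, edgeR adjusted p 0.000745). Intervals and floors cover counting error only. At 256-cell, where 13.5% of all genes tested were called, pla2g4f.2 was already lower in mutants (-4.24, edgeR adjusted p 0.000352) and pik3ap1 was higher (0.77, edgeR adjusted p 0.0136), while fcho1 and msraa did not pass the test there (-0.75 and -0.91).

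The called falling genes with the highest CPM differed less. ccna1, the embryonic cyclin A, had 3593, 3210, 3277 and 4083 CPM in wild type and 2691, 2775 and 2708 in mutants (-0.38, SE 0.08, edgeR adjusted p 0.00196). hspa5, the chaperone of the endoplasmic reticulum, had 3183, 2743, 2898 and 3471 CPM in wild type and 2106, 2298 and 2038 in mutants (-0.52, SE 0.09, edgeR adjusted p 8.31e-05). The groups did not overlap for either gene. In one fit of all 12 groups the call of ccna1 was lost (edgeR adjusted p 0.415). ccna1 was already lower in mutants at 1-cell and 256-cell (-0.69 and -0.46, edgeR adjusted p 0.0489 and 0.000150), and lower at shield (-0.83, edgeR adjusted p 3.59e-05). Its difference did not pass the test for a change from 256-cell to dome (interaction 0.09, edgeR adjusted p 0.770). hspa5 was not called at 1-cell or 256-cell (0.20 and -0.15, edgeR adjusted p 0.592 and 0.214).

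The 152 calls against the course formed a different set, with some of the widest differences at dome. znf1126, named as a zinc finger gene and otherwise without a known role here, rises in wild type and had 112, 151, 56.8 and 101 CPM in wild type against 0.344, 1.35 and 0.151 in mutants (-7.48, SE 0.46, edgeR adjusted p 2.30e-10). tmem101, a membrane protein, had 71.9, 79.4, 86.7 and 73.9 CPM against 0.172, 0.769 and 3.94 (-5.49, SE 0.47, edgeR adjusted p 1.61e-07). The zinc finger gene znf1020 had 59.8, 71.6, 22.7 and 35.4 CPM against 0.687, 0.577 and 3.03 (-4.97, SE 0.52, edgeR adjusted p 6.79e-07), and the wild-type libraries themselves spread widely. znf1048 had 11.02, 13.9, 1.08 and 1.97 CPM against 0, 0.385 and 0.454 (-4.54, SE 1.15, edgeR adjusted p 0.00631). Members of this zinc finger family are near-identical copies that could share reads, so single entries are uncertain.

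On the falling side, adcy8, an adenylate cyclase, had 1.89, 0.308, 1.55 and 3.65 CPM in wild type and 16.7, 32.7 and 34.1 in mutants (3.88, SE 0.51, edgeR adjusted p 2.97e-06). tfb1m, which methylates mitochondrial ribosomal RNA, had 1.98 ± 2.00 CPM in wild type and 17.1 ± 8.49 in mutants (3.11, SE 0.69, edgeR adjusted p 0.00257). itgb6, an integrin subunit, had 2.49 ± 1.84 and 13.7 ± 2.099 CPM (2.45, SE 0.59, edgeR adjusted p 0.00402). mblac1, a metallo-beta-lactamase domain protein, had 3.20 ± 0.888 and 14.0 ± 8.70 CPM (2.13, SE 0.55, edgeR adjusted p 0.00743), and its call was lost without mutant replicate 3 (adjusted p 0.120). Mutant levels of all 4 stood above every wild-type library, as the rule for naming requires.

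Steady genes differed by under 0.5 log2 units between 256-cell and shield, whatever the p, so they can still change on the wild-type course. cdca7, for one, passed the test there (0.42, edgeR adjusted p 0.00191), and a level can also peak in between, at dome. hmgxb3, an HMG-box protein, had 14.8, 14.9, 11.3 and 10.96 CPM in wild type and no count in any mutant library, at least 76.3-fold lower against the floor of 3 counts over the group (edgeR adjusted p 5.33e-07). Wild-type libraries held 20 to 50 of its counts at 256-cell, 73 to 97 at dome and 8 to 28 at shield. ptprb, a receptor tyrosine phosphatase, had 11.3, 3.23, 3.40 and 3.65 CPM and no count in mutants, at least 31.8-fold lower (edgeR adjusted p 0.00130), with wild-type replicate 1 far above the others. entpd5b, a nucleoside diphosphatase, had 6.42 ± 0.952 CPM in wild type and 0.350 ± 0.451 in mutants (-4.14, SE 1.06, edgeR adjusted p 0.00720). rif1, given above, was the fourth.

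Among steady genes higher in mutants, nccrp1 had 2.99, 2.31, 4.33 and 3.79 CPM in wild type and 33.7, 26.5 and 21.4 in mutants (3.01, SE 0.40, edgeR adjusted p 3.34e-06). top3b, a topoisomerase that acts on DNA and RNA, had 0.787, 3.08, 4.80 and 3.79 CPM against 23.9, 30.2 and 14.8 (2.87, SE 0.48, edgeR adjusted p 9.00e-05). ogfr2, an opioid growth factor receptor-like gene, had 2.29 ± 2.14 and 17.8 ± 3.98 CPM (2.95, SE 0.60, edgeR adjusted p 0.000864). hsp70.3, an inducible heat shock chaperone with near-identical copies, had 0.472, 4.00, 1.24 and 0.562 CPM against 7.04, 23.8 and 4.39 (2.89, SE 0.75, edgeR adjusted p 0.00760). Its highest value lay in mutant replicate 2, without which the call was lost (adjusted p 0.287). The called steady genes with the highest CPM were cdca7, a chromatin regulator, at 2492 ± 142 CPM in wild type and 3154 ± 230 in mutants (0.34, SE 0.08, edgeR adjusted p 0.00312), and mycla, a Myc family gene, at 2622 ± 251 and 2210 ± 149 CPM (-0.25, SE 0.09, edgeR adjusted p 0.0440). The call of mycla was lost without any 1 of the 3 mutant libraries or of wild-type replicates 1 and 4 (adjusted p 0.0562 to 0.208).

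**Figure D3:**
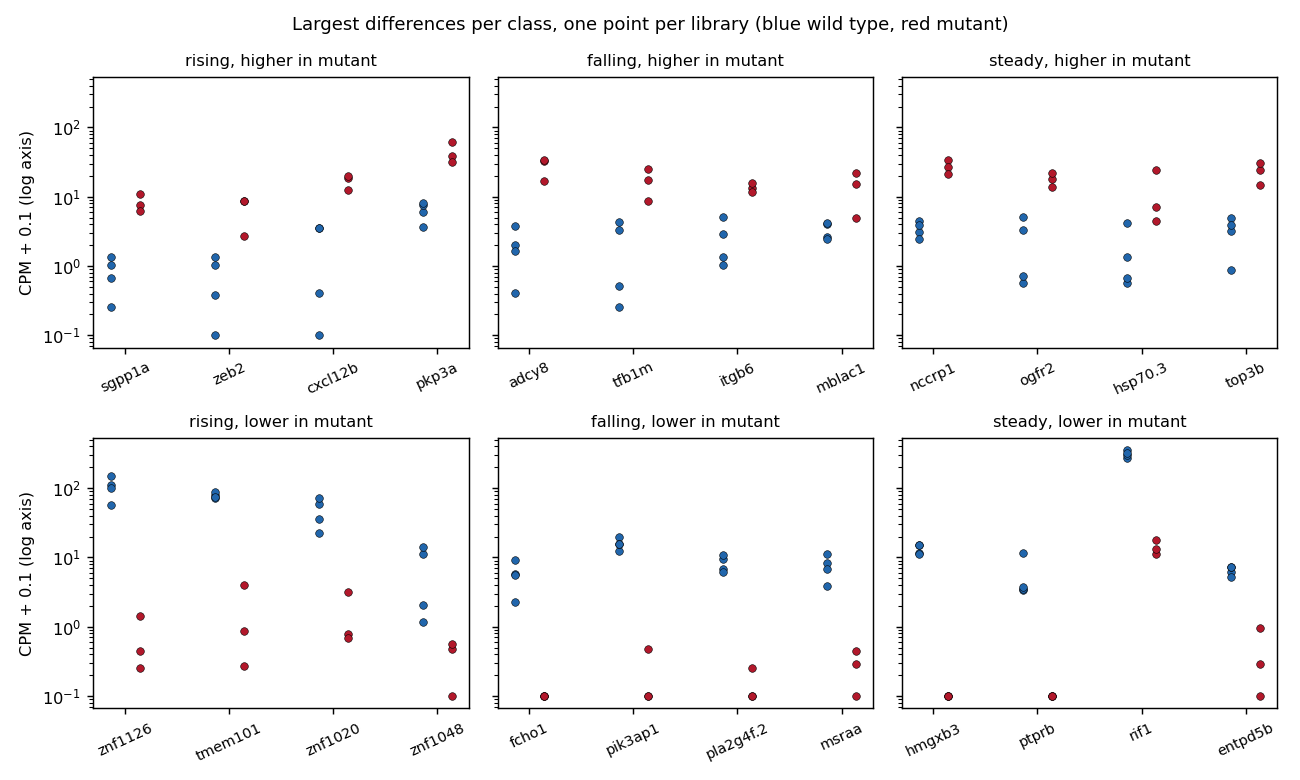
CPM of the genes with the widest differences in each wild-type class and direction, with 1 point per library on a log axis after adding 0.1 (blue wild type, red mutant). As the rule for naming requires, no gene shown has overlapping genotypes, and in the lower panels hmgxb3, ptprb and fcho1 have no count in the mutant libraries.

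Other stages gave a reading of the same genes in libraries that neither the dome comparison nor the classes used. Of the 152 calls against the course, 123 could be tested at the 1-cell stage and 29 were called in the same direction there (23.6%), 23 of 129 at bud (17.8%) and 18 of 121 at 24 hpf (14.9%). Of the 1141 calls with the course the shares were 9.06%, 4.36% and 6.67%, and of the 295 steady calls 11.6%, 6.20% and 6.39%. Over all genes tested, 10.2% were called in either direction at the 1-cell stage, 5.51% at bud and 8.63% at 24 hpf, of which 5.14%, 2.41% and 4.35% were higher and 5.03%, 3.09% and 4.28% lower. The difference between these shares was not tested.

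The 4 steady genes called alike at the most of these other stages were rif1, cdc42se1, btbd10 and dhcr7. cdc42se1, an effector of the small GTPase Cdc42, had 188, 137, 129 and 163 CPM in wild type and 268, 297 and 272 in mutants at dome (0.85, SE 0.13, edgeR adjusted p 2.41e-05). btbd10, a BTB domain protein, had 205, 204, 249 and 209 CPM against 120, 155 and 149 (-0.62, SE 0.13, edgeR adjusted p 0.00126). dhcr7, the last enzyme of cholesterol synthesis, had 28.8, 19.5, 29.1 and 24.4 CPM against 6.53, 13.5 and 7.27 (-1.49, SE 0.35, edgeR adjusted p 0.00347). At bud the log2 differences were 0.83, -0.64 and -3.67 in this order (edgeR adjusted p 0.0193, 0.0215 and 0.000371). None of these 3 genes was called alike at every stage. At 1-cell cdc42se1 was higher (0.91, edgeR adjusted p 0.0396), while btbd10 (0.38) and dhcr7 (0.36) had the sign opposite to dome and were not called. At 24 hpf cdc42se1 was not called (0.02), and btbd10 and dhcr7 were lower (-0.40 and -1.01, edgeR adjusted p 0.00654 and 0.0274).

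Whether the genotype difference changed between dome and a neighbouring stage was tested as the interaction of genotype and stage. It passed for 6.94% of genes between 256-cell and dome and for 6.83% between dome and shield. A gene can pass with a larger or a smaller difference at dome. The genes given here were named for wide differences at dome, and the interaction uses the same dome libraries. That choice favours a smaller difference at the neighbours, so their values are a description and not independent support. tmem101 was slightly higher in mutants at 256-cell (0.66) and not called at shield (0.10), and its difference changed by -6.14 (SE 0.53, edgeR adjusted p 1.58e-07) into dome and by 5.57 (SE 0.48, edgeR adjusted p 7.21e-08) out of it. top3b went from -2.05 at 256-cell through 2.87 at dome to -0.14 at shield (interactions 4.91 and -3.02, edgeR adjusted p 0.000267 and 0.0431). nccrp1 differed at dome more than at either neighbour (2.39 and -2.53, edgeR adjusted p 0.00412 and 0.00671). hmgxb3 was lower in mutants at earlier stages as well. At the 1-cell stage wild-type libraries held 32 to 54 of its counts and at 256-cell 20 to 50, and no mutant library of either stage held any (edgeR adjusted p 0.00454 and 0.000703). At shield and 24 hpf hmgxb3 could not be tested. Wild-type libraries held 8 to 28 and 6 to 25 of its counts there, and mutant ones 0 to 6 and 0 to 1. At bud it was not called (-1.95, edgeR adjusted p 0.272).

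**Figure D4:**
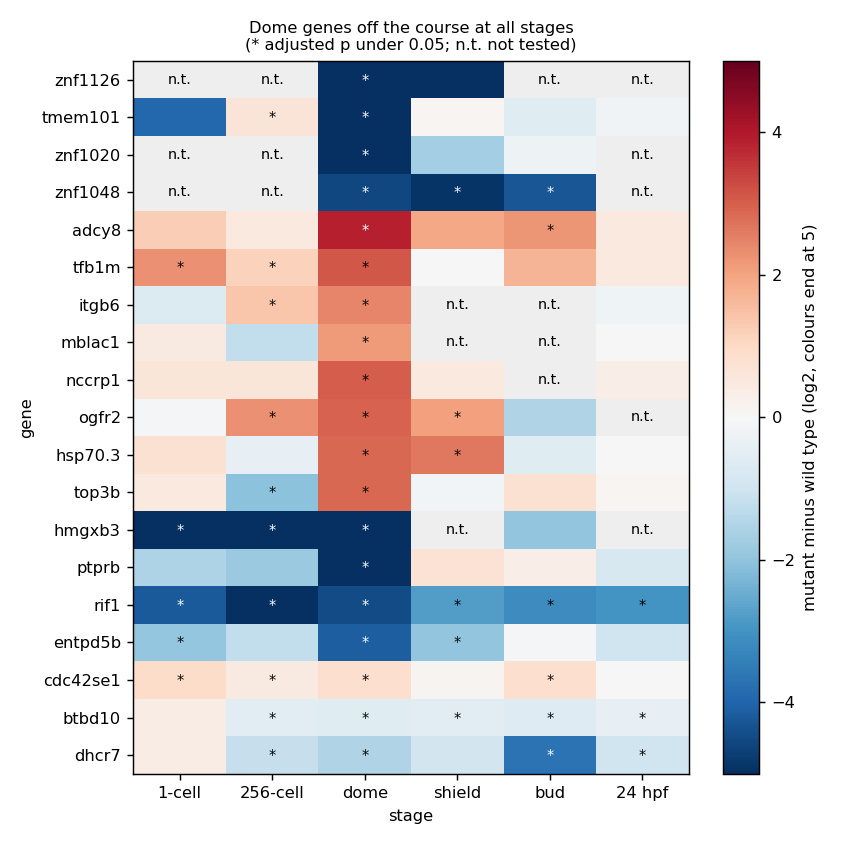
Log2 difference between mutant and wild type at each stage, with colours that end at 5 log2 units, asterisks for an adjusted p under 0.05 (edgeR) and n.t. where a gene could not be tested. Shown are the genes named above for the widest differences against the wild-type course or among steady genes, and the steady genes called alike at other stages. rif1 is lower at all 6 stages, while tmem101, top3b and nccrp1 change sign or size around dome; fitted values with a group at 0, such as hmgxb3, depend on the prior count.

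Gene lists were written from general knowledge, and are described by counts of calls and medians beside the all-gene values of 8.42% higher, 8.59% lower and -0.03. Many lists hold mostly rising or mostly falling genes, for which the class values are the closer measure. Rising genes had 22.5% higher and a median of 0.34, and falling genes 16.4% lower and -0.35. The medians of the first zygotic (0.33), yolk syncytial layer (0.35), organizer (0.40) and ribosomal protein (0.26) lists lie near that of rising genes. Those of FGF (0.54), BMP (0.58) and the enveloping layer (0.99) lie above it, which was not tested. The list of zygotic genome activators, transcription and chromatin factors tied to the first transcription of the embryo, had 3 of 7 tested genes higher and none lower. pou5f3, one of the main activators, had 1070, 1147, 919 and 928 CPM in wild type and 1448, 1225 and 1607 in mutants (0.49, SE 0.10, edgeR adjusted p 0.000773). sox3, of the SoxB1 family, had 413, 463, 403 and 369 CPM against 595, 526 and 599 (0.48, SE 0.10, edgeR adjusted p 0.00135). foxh1, a Nodal co-factor, was the third (0.37), and its call was lost without mutant replicate 1 or 2 or wild-type replicate 1 or 4 (adjusted p 0.0739 to 0.125). All 3 genes rise on the wild-type course, sox3 by 9.48 log2 units. sox3 was already higher in mutants at 256-cell (3.05, edgeR adjusted p 1.12e-05), and its difference was smaller at dome (interaction -2.56, edgeR adjusted p 1.14e-09). pou5f3 and foxh1 were not called at 256-cell (-0.26 and 0.37, edgeR adjusted p 0.0736 and 0.197).

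Of 25 first zygotic genes tested, all of which rise in wild type, 10 were higher and 4 lower (median 0.33). isg15, a ubiquitin-like modifier, had 11.96, 16.5, 18.9 and 16.2 CPM in wild type and 77.3, 50.2 and 58.8 in mutants (1.97, SE 0.25, edgeR adjusted p 2.17e-06). znfl2a, a zinc finger gene, had 42.98, 32.2, 31.6 and 14.5 CPM against 116, 95.6 and 114 (1.84, SE 0.24, edgeR adjusted p 4.54e-06). The forkhead factor foxd5 had 72.9, 137, 90.1 and 66.0 CPM against 192, 186 and 183 (1.03, SE 0.18, edgeR adjusted p 0.000203). The 4 that were lower (klf2b, nnr, tbx16 and mxtx2, named after their values were seen) had log2 differences of -0.57, -0.50, -0.49 and -0.46, so the list did not move as one.

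BMP and ventral genes had 6 of 18 higher and none lower (median 0.58), including id3 at 74.2 ± 10.7 and 135 ± 11.4 CPM (0.86, SE 0.15, edgeR adjusted p 0.000215), id1 at 956 ± 177 and 1404 ± 99.8 CPM (0.56, SE 0.11, edgeR adjusted p 0.000688), both inhibitors of bHLH factors and BMP targets, and the ventral homeobox repressor vox (0.61). At 256-cell id3 and id1 were already higher in mutants (1.55 and 2.55, edgeR adjusted p 2.37e-06 and 8.24e-08), and vox could not be tested. FGF genes had 3 of 11 higher and none lower (1 lower with libraries scaled by their totals alone), and the 3 are targets of the pathway: etv5b at 79.1 ± 11.8 and 151 ± 10.3 CPM (0.93, SE 0.15, edgeR adjusted p 5.43e-05), etv4 at 61.95 ± 16.3 and 132 ± 40.7 CPM (1.09, SE 0.21, edgeR adjusted p 0.000549), and dusp6, a feedback phosphatase (0.54), whose call was lost without mutant replicate 3 (adjusted p 0.0894). At 256-cell etv5b was lower in mutants and etv4 higher (-1.05 and 1.54, edgeR adjusted p 0.00492 and 0.00192), and dusp6 could not be tested. Organizer genes had 3 of 12 higher (gsc, noto and dkk1b) and none lower, against 1 higher and 1 lower with totals alone. Without mutant replicate 3 the call of gsc was lost (adjusted p 0.201), as it was without wild-type replicate 3 (0.0554). The call of noto was lost without any library but wild-type replicate 2 (0.0682 to 0.141), and that of dkk1b without any but wild-type replicates 2 and 3 (0.0576 to 0.136).

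In the Wnt and T-box list 3 of 15 were higher and 1 lower, with opposite signs in its T-box genes. tbxta, the notochord Brachyury gene, had 20.3, 39.6, 30.0 and 24.2 CPM in wild type and 70.9, 56.0 and 68.8 in mutants (1.19, SE 0.24, edgeR adjusted p 0.000642). tbx16, needed for mesoderm migration, had 400, 427, 367 and 377 CPM against 285, 248 and 306 (-0.49, SE 0.11, edgeR adjusted p 0.00193). The genotypes were apart in both genes, and in opposite order. Of 12 Nodal and endoderm genes 1 was higher, the co-receptor tdgf1 (0.51, edgeR adjusted p 0.000549), and 2 were lower, the transducer smad2 (-0.69, edgeR adjusted p 0.00182) and mxtx2 (-0.46, edgeR adjusted p 0.00440), which acts in the yolk syncytial layer.

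The enveloping layer, the outer epithelium that forms first in the fish embryo, had 12 of 24 tested genes higher and 2 lower, with a median of 0.99. Keratins make up much of it. krt4 had 235, 275, 274 and 212 CPM in wild type and 499, 530 and 499 in mutants (1.03, SE 0.11, edgeR adjusted p 8.71e-08). krt92 had 115, 145, 87.3 and 93.3 CPM against 316, 344 and 362 (1.63, SE 0.14, edgeR adjusted p 2.62e-09), and krt97 had 82.9 ± 17.8 against 223 ± 11.02 (1.43, SE 0.15, edgeR adjusted p 6.76e-08). No mutant library overlapped a wild-type one in these 3 genes. Keratin genes lie in families of close copies, and shared reads are possible.

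The lower genes of that list included epcam, an epithelial cell adhesion molecule whose RNA rises in wild type. epcam had 2368, 2669, 2355 and 2517 CPM in wild type and 109, 196 and 141 in mutants, a log2 difference of -4.06 (SE 0.16, edgeR adjusted p 2.18e-11). At the other stages the log2 difference was -1.19 at 1-cell, 0.35 at 256-cell, -5.28 at shield, -0.89 at bud and -4.23 at 24 hpf (edgeR adjusted p 0.00160, 0.0115, 2.52e-14, 4.28e-05 and 8.15e-24). The sign was thus opposite at 256-cell, and the differences at 1-cell and bud were smaller than at dome, shield and 24 hpf, which was not tested. The summed level of all 29 listed entries was lower in mutants (4277 to 4382 CPM against 4799 to 5469), while the sum without epcam, a choice made after its value was seen, was higher (4081 to 4242 against 2334 to 2800). Yolk syncytial layer genes had 2 of 16 higher and 1 lower. Their summed level was 2984 to 3112 CPM in mutants and 2445 to 2782 in wild type, with no overlap. The apolipoprotein gene apoeb made up much of that sum, at 1764 ± 77.4 against 1337 ± 131 CPM (0.40, SE 0.09, edgeR adjusted p 0.00172, and 0.449 in one fit of all 12 groups). The gap in the sum thus mostly follows apoeb and is not a measure of the whole list.

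Germ plasm genes, which encode the RNAs and proteins inherited by future germ cells, had none of 18 higher and 6 lower (median -0.29), and all 6 fall on the wild-type course. buc, the organizer of the Balbiani body, had 576, 384, 542 and 621 CPM in wild type and 155, 181 and 146 in mutants (-1.73, SE 0.14, edgeR adjusted p 9.68e-10). dazl, an RNA-binding protein of germ cells, had 99.6, 86.5, 120 and 98.3 CPM against 50.8, 56.5 and 48.5 (-0.96, SE 0.17, edgeR adjusted p 0.000239). The other called members named by the rule, rgs14a (-0.90) and tdrd1 (-0.53), were each lost on leaving out a library: rgs14a without wild-type replicate 1 (adjusted p 0.0750), and tdrd1 without mutant replicate 3 or wild-type replicate 4 (0.134 and 0.0948). The summed level of the list was 1830 to 2272 CPM in wild type and 1389 to 1644 in mutants.

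Oocyte and egg coat genes had none of 24 higher and 9 lower (median -0.45). zglp1, a zinc finger factor of the germ line, had 152, 111, 122 and 167 CPM in wild type and 53.2, 48.5 and 66.5 in mutants (-1.30, SE 0.17, edgeR adjusted p 4.23e-06). The claudin cldnd had 1904 ± 240 and 1376 ± 126 CPM (-0.47, SE 0.10, edgeR adjusted p 0.000933), and gdf3, the maternal Vg1 ligand, had 864 ± 113 and 635 ± 27.8 (-0.44, SE 0.10, edgeR adjusted p 0.00240). Neither of these last calls held in one fit of all 12 groups (edgeR adjusted p 0.442 and 0.232).

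Factors of maternal mRNA storage and decay had 4 of 39 higher and 7 lower. cpeb4b, a cytoplasmic polyadenylation factor, was lower at 81.0 ± 2.80 CPM against 159 ± 30.3 in wild type (-0.97, SE 0.15, edgeR adjusted p 4.89e-05). The helicase ddx6, which acts in decapping and belongs to the steady class, was higher at 99.4 ± 19.1 against 51.9 ± 8.35 CPM (0.94, SE 0.19, edgeR adjusted p 0.000682). igf2bp1, an mRNA-binding protein, was higher as well (0.82, edgeR adjusted p 0.000299). The members that were lower mostly fall in wild type (5 of 7), and 3 of the 4 that were higher rise.

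**Figure D5:**
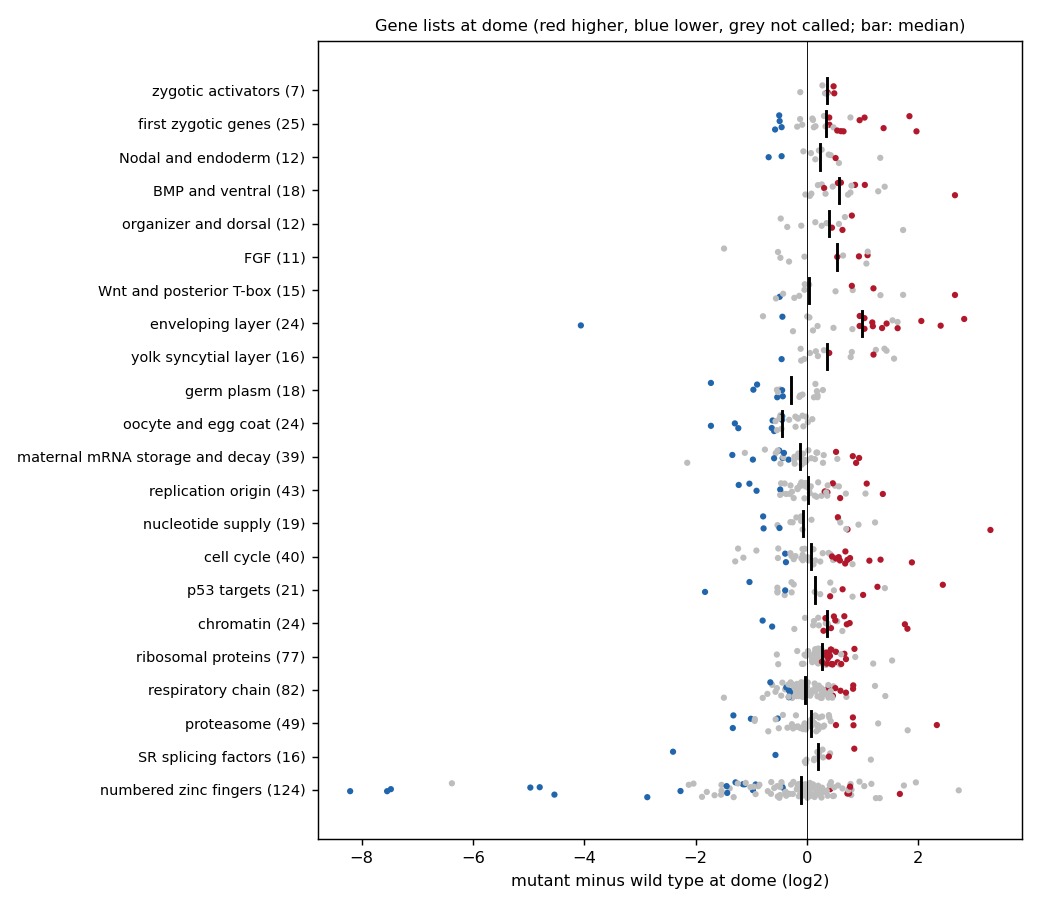
Log2 difference between mutant and wild type at dome for every tested member of each gene list, with the number tested in parentheses, red and blue for genes called higher and lower, grey for the rest and a bar at the median. The enveloping layer has the highest median (0.99), with epcam alone at -4.06, and the oocyte list the lowest (-0.45).

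Replication genes bear on the known work of Rif1. Of 43 tested genes of the replication origin and fork 6 were higher and 4 lower, with a median of 0.01. The licensing factor cdt1 had 718, 768, 620 and 548 CPM in wild type and 348, 372 and 342 in mutants (-0.91, SE 0.11, edgeR adjusted p 1.04e-06), although it rises on the wild-type course, and was lower at the 1-cell stage too (-1.17, edgeR adjusted p 0.00322). A pair of genes for the same helicase subunit moved in opposite directions: mcm3, which rises in wild type, had 27.5, 48.9, 37.4 and 38.4 CPM against 92.6, 89.0 and 112 (1.36, SE 0.20, edgeR adjusted p 1.42e-05), and mcm3l, which falls, had 115, 95.3, 106 and 83.6 CPM against 43.6, 40.2 and 44.1 (-1.23, SE 0.18, edgeR adjusted p 1.58e-05). Genes of nucleotide supply had 3 of 19 higher and 3 lower. The widest difference was in an entry that shares the symbol rrm2, a subunit of ribonucleotide reductase, with another (ENSDARG00000020711) and is uncertain for that reason. This entry had 3.94, 20.01, 7.43 and 4.35 CPM in wild type and 87.1, 71.9 and 104 in mutants (3.30, SE 0.46, edgeR adjusted p 0.000331), with no overlap. The other rrm2 entry (ENSDARG00000078069) was lower (-0.49, SE 0.11, edgeR adjusted p 0.00198). The higher entry, ENSDARG00000020711, had 1 count at 256-cell over the 3 wild-type libraries and 203 to 749 in each mutant one (edgeR adjusted p 4.24e-05). At shield this same entry had 2 counts over the wild-type libraries and 148 to 317 in each mutant one (edgeR adjusted p 9.30e-10). The cytidylate kinase gene cmpk was lower at 287 ± 17.4 against 493 ± 52.0 CPM (-0.78, SE 0.11, edgeR adjusted p 6.84e-06), as was the nucleotide hydrolase samhd1 at 186 ± 23.2 against 321 ± 73.5 (-0.79, SE 0.14, edgeR adjusted p 0.000325), and the purine enzyme paics was higher at 261 ± 20.996 against 158 ± 12.7 (0.73, SE 0.12, edgeR adjusted p 6.49e-05).

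Cell cycle genes had 11 of 40 higher and 2 lower (4 lower with totals alone; median 0.07), and 10 of the 11 rise in wild type. The repressor e2f4 had 27.5, 29.1, 15.5 and 17.8 CPM in wild type and 76.8, 89.8 and 82.5 in mutants (1.88, SE 0.23, edgeR adjusted p 1.10e-06). The S-phase cyclin ccne2 had 194, 255, 170 and 145 CPM against 385, 376 and 486 (1.12, SE 0.15, edgeR adjusted p 7.20e-06), and ccnb3 had 59.2 ± 12.6 against 148 ± 7.23 (1.32, SE 0.17, edgeR adjusted p 1.62e-06). ccna1 and ccng1 were the 2 lower genes. Of 21 p53 targets 5 were higher (3 with totals alone) and 3 lower. pmaip1, the apoptosis gene Noxa, had 65.0, 68.8, 50.9 and 56.3 CPM in wild type and 20.1, 17.9 and 12.9 in mutants (-1.83, SE 0.25, edgeR adjusted p 4.90e-06), and was also lower at each of the other 5 stages (-1.33 to -3.31, edgeR adjusted p 1.20e-06 to 0.00963). sesn3, a stress-response gene, was higher at 80.5 ± 15.9 against 40.04 ± 13.5 CPM (1.01, SE 0.22, edgeR adjusted p 0.00200), and the forkhead factor foxo3b at 14.6 ± 6.31 against 2.67 ± 1.11 (2.44, SE 0.55, edgeR adjusted p 0.00240).

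Chromatin genes had 11 of 24 higher and 2 lower (median 0.35). The nucleosome-binding protein hmgn2 had 106, 165, 128 and 103 CPM in wild type and 424, 433 and 417 in mutants (1.76, SE 0.13, edgeR adjusted p 1.90e-10). hmga1a, an architectural protein, had 4059, 4374, 3684 and 3965 CPM against 5596, 5625 and 5642 (0.48, SE 0.07, edgeR adjusted p 2.47e-05), and the Polycomb subunit eed had 107 ± 12.6 against 175 ± 21.8 (0.72, SE 0.14, edgeR adjusted p 0.000636). At other stages eed had the opposite sign. It was lower in mutants at 1-cell, shield and bud (-0.89, -0.93 and -0.79, edgeR adjusted p 0.00751, 0.000449 and 0.000683). It was not called at 256-cell or 24 hpf (-0.25 and -0.42, edgeR adjusted p 0.346 and 0.113). The 3 mutant libraries were close to each other in hmgn2 and hmga1a, and above every wild-type library. Of the 11 higher genes 10 rise in wild type, and the 2 lower genes fall.

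Ribosomal protein genes had 26 of 77 higher and none lower (median 0.26), the log2 difference was above 0 in 70 of the 77, and 75 of the 77 rise in wild type. rplp1 had 293, 345, 331 and 322 CPM in wild type and 570, 620 and 561 in mutants (0.85, SE 0.10, edgeR adjusted p 5.20e-07), and rplp0 had 478 ± 47.2 against 733 ± 14.98 (0.61, SE 0.10, edgeR adjusted p 4.39e-05). With libraries scaled by their totals alone 24 were called higher and none lower. At 256-cell rplp1 and rplp0 were already higher in mutants (1.34 and 0.75, edgeR adjusted p 5.58e-09 and 0.00158). Respiratory chain genes, of which 27 rise, 8 fall and 29 are steady among 82 tested, had 7 higher and 5 lower (median -0.03). Among them the steady gene cycsb, cytochrome c, was higher at 647 ± 21.96 against 426 ± 32.2 CPM (0.60, SE 0.10, edgeR adjusted p 5.27e-05) and the steady gene atp5f1b, an ATP synthase subunit, lower at 1588 ± 110 against 2054 ± 193 (-0.37, SE 0.09, edgeR adjusted p 0.00346).

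Proteasome genes had 4 of 49 higher and 4 lower. psmd12 was lower in mutants at 32.0 ± 0.891 against 80.1 ± 11.9 CPM in wild type (-1.32, SE 0.20, edgeR adjusted p 2.13e-05). psmd3 was higher at 35.9 ± 14.9 against 7.11 ± 2.24 CPM (2.33, SE 0.35, edgeR adjusted p 2.16e-05). Both encode subunits of the regulatory cap, and both rise in wild type. At 256-cell psmd12 was higher in mutants (1.51, edgeR adjusted p 4.51e-06), and psmd3 was not called (-1.45, edgeR adjusted p 0.0891). Among 16 SR splicing factors 2 were higher and 2 lower. srsf7a had 670, 681, 645 and 648 CPM in wild type and 1233, 1114 and 1227 in mutants (0.85, SE 0.09, edgeR adjusted p 5.00e-08). An entry that shares the symbol srsf1 with another (ENSDARG00000057691), and is uncertain for that reason, had 510, 534, 430 and 495 CPM against 73.7, 117 and 88.1 (-2.41, SE 0.14, edgeR adjusted p 1.15e-12), although it rises in wild type. This entry was also lower in mutants at 256-cell, shield and 24 hpf (-3.51, -0.85 and -0.99, edgeR adjusted p 3.64e-12, 0.00591 and 4.45e-11). It was not called at 1-cell or bud (0.50 and -0.21, edgeR adjusted p 0.358 and 0.355).

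Zinc finger genes known only by a number had 6 of 124 tested higher and 17 lower (median -0.11), out of 292 entries. The list goes by symbol alone and takes in genes outside the large zebrafish zinc finger family, znf185 among them. Of the 50 that rise in wild type 5 were higher and 8 lower, and of the 22 that fall none was higher and 5 were lower. znf1050, an unclassed member, had 110, 106, 50.3 and 57.6 CPM in wild type and 3.09, 4.42 and 1.36 in mutants (-4.80, SE 0.37, edgeR adjusted p 1.44e-09), and znf185 was higher at 68.7 ± 14.4 against 21.6 ± 5.91 CPM (1.67, SE 0.24, edgeR adjusted p 1.58e-05). The rising members of this list had more calls lower than higher, where rising genes as a whole had 629 higher and 91 lower; the difference was not tested.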

How the data were processed

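The authors deposited raw counts per gene (whole numbers, not normalized) for all libraries. The submitters' processing notes name STAR, HTSeq and GRCz11, with no versions; use of strand and of molecular identifiers is not given in the sources used here, so overlapping and antisense genes could share reads. Symbols came from a table of names that matched 28877 of 31877 entries. The 6086 entries that share a symbol are given by identifier, as uncertain.

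Each comparison was fitted in R 4.3.3 with edgeR 4.0.16 (robust quasi-likelihood, TMM, filterByExpr, no replicate block; calls at p under 0.05 after Benjamini-Hochberg correction). SE is the log2 difference divided by the root of F. Position used a prior count of 2. The fit was tested on simulated data. Named genes are, per class and direction, the 4 widest differences under the rule in the text, the 2 most abundant called per class, the 4 steady genes called alike at the most other stages, rif1, and up to 4 called genes with the smallest p per list. Of 510 list genes 397 matched; lists by symbol pattern (the ribosomal one without S6 kinases) come from the table. The members and lists were chosen with earlier results of these data known. Alternatives were RLE size factors, totals alone, DESeq2 1.42.0, other filters, one fit of all 12 groups, a replicate block, other class limits and each library left out. Promoter sequences were not used here.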

Additional observations from a re-analysis of the deposited data

Results flagged for a closer look

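Among values per library, 6 had 1 wild-type library apart from the other 3 by Dixon's criterion, which flags about 1 in 20 groups by chance. With 111 named genes, several such flags are due by chance alone, so these are no more than a description. ptprb was high in wild-type replicate 1 (11.3 CPM against 3.23 to 3.65; gap over range 0.948). btbd10 was high in replicate 3 (249 against 204 to 209; 0.873). dkk1b was low in replicate 4 (13.1 against 27.5 to 29.7; 0.870). ybx1, an RNA-binding protein, was high in replicate 2 (892 against 678 to 704; 0.881). Replicate 2 also stood apart in the share of counts in rising genes (0.841) and in its position on the wild-type course (0.945), on the side of the mutants.

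The genotype difference changed between neighbouring stages, by the edgeR interaction, for 9 of the genes off the wild-type course or steady, named above. From 256-cell to dome it changed by -6.14 log2 units for tmem101, 3.38 for adcy8 (adjusted p 0.000114), 3.36 for mblac1 (adjusted p 0.0229), 2.39 for nccrp1, 4.91 for top3b and 1.78 for rif1 (adjusted p 7.47e-05), all by edgeR. From dome to shield it changed by 5.57 for tmem101, 3.28 for znf1020 (edgeR adjusted p 0.0100), -7.96 for mblac1 (0.00309), -2.53 for nccrp1, -3.02 for top3b, 8.68 for ptprb (0.00202), 1.69 for rif1 (1.03e-05) and -0.74 for cdc42se1 (0.0208). The fitted values of mblac1 and ptprb rest on groups at or near 0 counts and depend on the prior count. Genes named for a wide difference at dome are favoured by this test, which uses the same dome libraries. Genes named only from the lists or for a high CPM are not counted here. Some of them passed as well, epcam among them (-4.41 from 256-cell to dome, edgeR adjusted p 1.02e-10).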

How the results depend on the processing

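No named gene changed direction under the alternatives it could be fitted in (all 111 genes, but 110 without wild-type replicate 1, 2 or 4 and 88 with at least 10 counts in every library). The call was lost for 14 in one fit of all 12 groups, 9 with the replicate block, 2 with library totals alone and at most 11 on leaving out a library. Calls at dome were 1993 with RLE size factors, 2004 with totals alone (861 higher; steady genes 98 higher and 207 lower), 2290 with DESeq2, 1979 without a filter on low counts (1840 shared), 1998 with at least 10 counts in every library, 1727 in one fit of all 12 groups (1000 higher), and 1452 to 1992 on leaving out a library. Replicate numbers were not taken to pair the samples. Deviations of same-numbered libraries correlated at 0.018, -0.014 and -0.011, and those of other pairs at -0.045 to 0.053, which with so few libraries cannot show that pairing is absent. With the replicate block 1479 genes were called (493 rising higher, 388 falling lower). On leaving out a library, rising calls ran from 444 to 680 higher and 70 to 83 lower, falling calls from 40 to 59 higher and 365 to 529 lower, and steady calls from 71 to 112 higher and 116 to 173 lower. With classes at 2 log2 units, rising calls lower were 46, falling calls 30 higher and 319 lower, and the falling share of counts differed by -2.25 percentage points in place of -4.07. With steady genes under 0.25 log2 units there were 59 higher and 91 lower. With classes from library totals alone, rising calls lower were 52, falling calls higher 117, and steady calls 180 higher and 125 lower, the reverse of the balance of 120 and 175. Stricter class limits hold fewer genes; the cause of the other changes was not tested. The planned description of promoter motifs was not run.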
